A study of Mus musculus with 24 samples.

Results

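Platelet alpha granules are storage organelles that megakaryocytes build and pass to platelets, which release the contents at sites of injury. The genes described here are 10 genes whose proteins are stored in them: Pf4, Ppbp, Vwf, Thbs1, Selp, Clu, Serpine2, F5, Mmrn1 and Tgfb1. They were chosen by gene symbol, each matched 1 of the 24438 genes with a symbol, and all 10 passed the filter on low counts in every comparison. Their RNA was measured in 24 bulk libraries from sorted bone marrow cells of C57BL/6N mice, sequenced by Smart-seq2, a full-length method for small amounts of RNA. The populations were long-term haematopoietic stem cells (LTHSC), pre-megakaryocyte-erythroid progenitors (preMegE), which can give both lineages, and megakaryocyte progenitors (MkP). Tamoxifen, the drug that switches on inducible Cre, was given on 5 days to all animals, and cells were collected 12 weeks afterwards. KI stands for Scl.Cre mouse Jak2 knock-in, E12 for Scl.Cre Exon12, and VF for Vav1.Cre V617F, the last named after the JAK2 mutation common in myeloproliferative neoplasms. Each of the 8 groups held 3 libraries, and none of the 24 libraries was preMegE of the E12 line. The series names both wild-type and mutant JAK2 strains without saying in the sample labels which line is unmutated, so KI serves here as the reference of comparison and nothing is assumed about its allele. VF differs from the other lines in its Cre driver as well as in its allele, so the part of each cannot be told apart. Nothing in the labels ties replicates to separate animals or pools, so each p-value reflects only the spread of these samples, which may be technical.

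Alpha-granule proteins fall into several roles. Pf4 (CXCL4) and Ppbp (the precursor of CXCL7) are platelet chemokines. Vwf, Thbs1 and Mmrn1 code for large adhesive or carrier glycoproteins: von Willebrand factor tethers platelets to exposed collagen, thrombospondin-1 binds matrix and cell receptors, and multimerin-1 binds coagulation factor V. Selp codes for P-selectin, which sits in the granule membrane and moves to the platelet surface on activation. F5 codes for factor V, the cofactor of the prothrombin-cleaving enzyme, Serpine2 for protease nexin-1, an inhibitor of thrombin, Clu for the chaperone clusterin, and Tgfb1 for the growth factor TGF-beta 1. Vwf, Selp and Mmrn1 are also known from stem cells and endothelium, so markers of those cells are given with the results.

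The members lie at 8 places in the mouse genome (GRCm38), and 2 pairs are neighbours. Ppbp (chr5:90768518-90770063) ends 2371 bases from Pf4 (chr5:90772435-90773383), within a cluster of CXC chemokine genes. Selp (chr1:164115264-164150026) ends 1808 bases from F5 (chr1:164151835-164220277). The other members are Serpine2 (chr1:79794317-79858665), Thbs1 (chr2:118111876-118127133), Mmrn1 (chr6:60944317-60989378), Vwf (chr6:125552948-125686679), Tgfb1 (chr7:25687002-25705077) and Clu (chr14:65968483-65981548). RefSeq promoter sequences (GRCm38.p6) matched 7 of the 10 members. Of these, 4 are shown for the contrasts that follow: the chemokine neighbours Pf4 and Ppbp, Serpine2, and Mmrn1, whose order across populations differed from the rest. Each is the 250 bases before the gene's start, 5′ to 3′ on the gene's strand, with capitals marking matches to the motifs named below.
Pf4: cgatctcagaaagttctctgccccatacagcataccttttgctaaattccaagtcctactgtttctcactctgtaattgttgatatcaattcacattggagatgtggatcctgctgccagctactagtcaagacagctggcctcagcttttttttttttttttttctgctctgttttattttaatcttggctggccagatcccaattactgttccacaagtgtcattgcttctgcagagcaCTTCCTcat
Ppbp: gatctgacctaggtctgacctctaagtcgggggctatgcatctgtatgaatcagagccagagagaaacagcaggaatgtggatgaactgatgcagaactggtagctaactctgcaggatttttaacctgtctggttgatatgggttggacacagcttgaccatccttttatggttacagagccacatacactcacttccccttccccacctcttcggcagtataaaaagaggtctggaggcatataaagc
Serpine2: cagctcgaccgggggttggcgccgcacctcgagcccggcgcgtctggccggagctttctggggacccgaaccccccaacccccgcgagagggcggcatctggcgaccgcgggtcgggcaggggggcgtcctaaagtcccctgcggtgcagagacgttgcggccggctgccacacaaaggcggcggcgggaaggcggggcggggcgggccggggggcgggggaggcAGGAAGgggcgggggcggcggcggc
Mmrn1: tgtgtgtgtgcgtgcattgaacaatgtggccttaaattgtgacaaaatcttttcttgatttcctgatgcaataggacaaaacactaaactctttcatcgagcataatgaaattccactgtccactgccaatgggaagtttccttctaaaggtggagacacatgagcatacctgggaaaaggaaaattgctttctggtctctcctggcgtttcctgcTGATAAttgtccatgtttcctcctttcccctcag
Motifs were searched on both strands, so that the Pf4 match reads as the reverse complement of the ETS letters. Letters bound by ETS factors were AGGAAG or else CGGAAG. Letters bound by GATA factors were AGATAA or else AGATAG, and TGATAA or else TGATAG. For RUNX factors the letters were TGTGGT. None of these motifs overlaps another in the windows shown. An ETS motif stood in 5 of the 7 members' windows and in 39.0% of the 27025 mouse promoters of the same length. In Pf4 it lies 9 to 4 bases before the start, and in Serpine2 25 to 20 bases. A GATA motif stood in 1 window, that of Mmrn1 (34 to 29 bases before the start), and in 27.1% of promoters. A RUNX motif stood in 0 of 7 and in 14.2% of promoters. These are matches of letters only.

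Total counts ranged from 10357877 to 29691635 per library. Jak2, the gene named in the lines, averaged between 32.0 and 94.3 CPM (counts scaled by library size and TMM factor) in the 8 groups, and no genotype comparison of it passed the test (smallest adjusted p = 0.232, edgeR). The TMM factor, which scales a library by its typical gene, was under 0.8 in 4 libraries. These were LTHSC E12 replicate 4, preMegE KI replicate 1, and MkP KI replicates 5 and 6. In 3 of them, both MkP libraries and the preMegE library, genes shorter than 1000 bases held 37.7% to 38.1% of the counts, against 5.79% to 16.8% in the other 21 libraries. Pf4, with 588 bases, is the only member of that length class. Genes of 4000 bases or more, which include Vwf, Thbs1, F5 and Mmrn1, held 11.7% to 14.3% of the counts in these 3 libraries. LTHSC E12 replicate 4 had 27516 CPM summed over 12 neutrophil and monocyte markers, against 713 to 2156 in the other LTHSC libraries, and 836 CPM over 12 stem cell markers, against 2030 to 2463. In it, genes shorter than 1000 bases held 12.9% of the counts, against 5.79% to 7.27% in the other LTHSC libraries. Genes of 4000 bases or more held 14.6%, against 25.5% to 28.7%. Many results that rest on these libraries are given with and without them, and the part these features had in the results was not tested. Without them MkP KI is 1 library, which the fit assumes to vary like the other groups.

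The labelled populations were checked against marker genes. Stem cell markers summed to 2030 to 2463 CPM in 8 LTHSC libraries and to 542 to 1257 in preMegE and MkP. Erythroid markers summed to 4050 to 11466 CPM in preMegE and to 1714 to 3617 elsewhere. Markers of mature megakaryocytes and platelets, some of them receptors of the cargo, summed to 2169 to 5697 CPM in MkP, 891 to 1348 in preMegE and 725 to 1914 in LTHSC. All 11 endothelial markers summed to 430 to 615 CPM in LTHSC and to 170 to 357 in the other populations. Most of this sum came from genes that stem cells share, such as Esam and Egfl7. Of the others, Cdh5 (at most 0.56 CPM in a library) and Flt1 (at most 1.92 CPM) were near 0. The remaining endothelial markers are not given singly, and the part of endothelial cells in the results was not tested. Neutrophil and monocyte markers were high in preMegE (2546 to 19130 CPM) and MkP (1462 to 8569 CPM). Summed levels of mast and basophil (6.86 to 1000 CPM), lymphoid (42.8 to 510), macrophage (13.9 to 116) and stromal markers (6.34 to 69.1) varied over the 24 libraries. In bulk samples fewer cells of a type and less RNA per cell cannot be told apart.

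**Figure D1:**
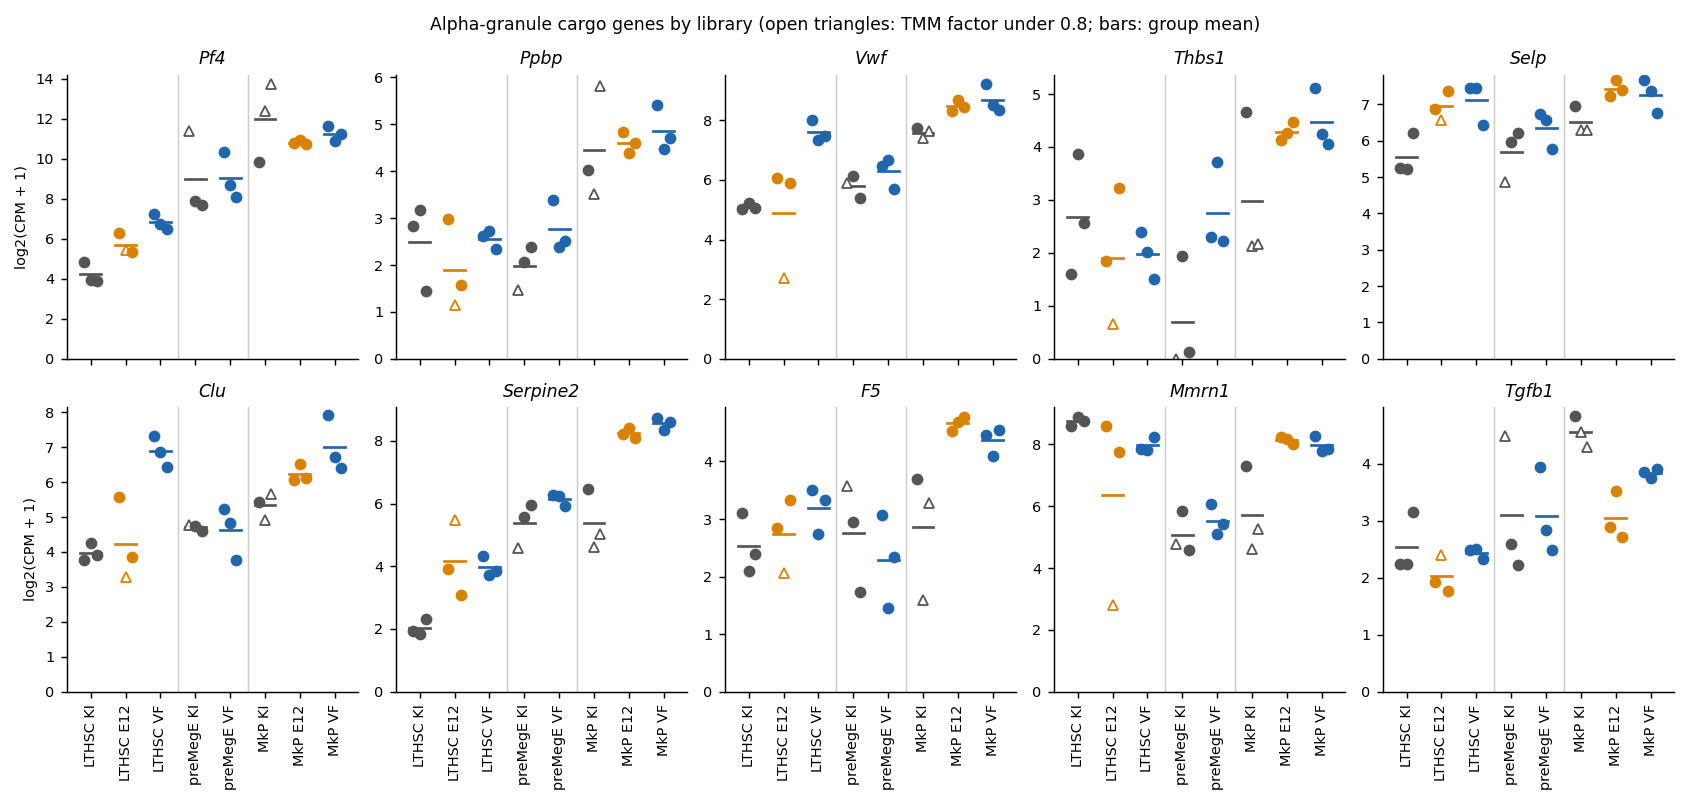
Each panel shows 1 gene in 24 libraries as log2(CPM + 1) on the vertical axis, by population and genotype (grey KI, orange E12, blue VF); bars are means of the plotted values in each group of 3, and open triangles are the 4 libraries with a TMM factor under 0.8. Pf4 and Serpine2 step up from LTHSC to preMegE to MkP in VF, while the preMegE and MkP libraries of both overlap in KI. Mmrn1 is low in preMegE, and the LTHSC VF libraries overlap with the MkP libraries for Vwf and Clu.

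Per kilobase of gene length, which allows levels to be compared between genes, Pf4 was the most abundant of the 10 in every group except LTHSC KI. There Mmrn1 led, with 93.4 ± 9.46 CPM per kilobase (SD, n = 3), and Pf4 was the next with 31.8 ± 13.1. Pf4 reached 3055 ± 231 CPM per kilobase in MkP E12 and 4208 ± 1092 in MkP VF. As a share of the summed per-kilobase level of the members, Pf4 held 88.9% to 91.4% in the 7 MkP libraries with a TMM factor of at least 0.8 and 99.0% and 99.3% in MkP KI replicates 5 and 6. Its share was 81.3% to 94.4% in 5 preMegE libraries and 14.9% to 52.1% in 8 LTHSC libraries. Pf4 thus made up most of the summed level of these 10 members in MkP. In LTHSC other members held larger parts than in MkP, such as Mmrn1 with 51.6% to 62.2% in LTHSC KI. Thbs1, F5 and Tgfb1 each held at most 2.26% in any library.

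The comparison of MkP with LTHSC, averaged over KI, E12 and VF, asked which cargo genes are higher in committed megakaryocyte progenitors. Of the 10 members, 8 rose and 0 fell, where 34.7% of the 14965 genes tested were called, 17% as higher and 17.7% as lower. The median log2 fold change was 1.79 over the members and 0.01 over all genes. Pf4 rose most (log2 5.99, SE 0.58, adjusted p = 1.24e-07), followed by Serpine2 (log2 4.14, SE 0.32, adjusted p = 4.83e-09). Ppbp (log2 2.58), Vwf (2.23), Thbs1 (1.92), Tgfb1 (1.67), F5 (1.28) and Clu (1.13) also rose. Selp (log2 0.51, SE 0.22, adjusted p = 0.0809) and Mmrn1 (log2 -0.69, SE 0.44, adjusted p = 0.233) did not pass. Pf4 and Ppbp were the members whose 9 MkP libraries all lay above all 9 LTHSC libraries, against 1.4% of genes that were higher without overlap and 4.74% without overlap in either direction. Leaving out the 4 libraries, the same 8 members rose and Mmrn1 fell (log2 -0.56, SE 0.20, adjusted p = 0.0325), where 39.2% of genes were called. Pf4 was then higher by log2 4.94 and Serpine2 by 4.72. Mmrn1 was also called lower without LTHSC E12 replicate 4 alone (adjusted p = 0.0201) or MkP KI replicate 4 alone (0.0332), and Selp higher without LTHSC KI replicate 3 (0.0339). The 8 calls held whichever of the 18 libraries compared was left out.

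The chemokines differed in when they rose. Pf4 measured 27.6, 14.4 and 14.1 CPM in the LTHSC KI libraries, 237 and 203 in preMegE KI replicates 2 and 3, and 918 in MkP KI replicate 4. In the libraries rich in short genes it measured 2694 CPM (preMegE KI replicate 1), 5345 (MkP KI replicate 5) and 13476 (MkP KI replicate 6). Mean Pf4 in KI therefore rose at each step, although these means rest on those libraries. Without them Pf4 also stood higher at each step, but MkP KI is then 1 library. In preMegE VF Pf4 measured 1286, 406 and 268 CPM, in MkP E12 1746, 1950 and 1693, and in MkP VF 3142, 1861 and 2421. The lowest MkP library had more Pf4 than all LTHSC and 4 of the 6 preMegE libraries. Ppbp, 2371 bases away, lay between 1.22 and 9.50 CPM in all 15 LTHSC and preMegE libraries and between 10.4 and 55.8 in the 9 MkP libraries. It rose in MkP over preMegE (log2 2.69, SE 0.48, adjusted p = 0.00105), while its difference between preMegE and LTHSC was log2 -0.22 (SE 0.45, adjusted p = 0.728).

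Between preMegE and LTHSC, compared over KI and VF, 3 members passed, Pf4 and Serpine2 as higher and Mmrn1 as lower. Here 40.7% of all genes were called, 21.3% as higher and 19.4% as lower. The same 3 were the members without overlap between the 6 preMegE and the 6 KI and VF LTHSC libraries, as were 25.8% of genes, 12.8% as higher. Pf4 rose by log2 4.15 (SE 0.65, adjusted p = 6.86e-05) and by 2.99 without the 4 libraries. Serpine2, the thrombin inhibitor, rose by log2 3.02 (SE 0.38, adjusted p = 6.00e-06). It measured 2.78, 2.59 and 3.97 CPM in LTHSC KI, 23.1, 46.1 and 60.8 in preMegE KI, and 19.0, 12.3 and 13.4 in LTHSC VF against 76.2, 74.6 and 59.6 in preMegE VF. Mmrn1 fell by 3.02 on the log2 scale (SE 0.58, adjusted p = 0.000431). It measured 387, 475 and 437 CPM in LTHSC KI and 26.4, 56.0 and 23.1 in preMegE KI. The VF libraries showed 230, 223 and 302 CPM in LTHSC and 65.7, 33.6 and 41.6 in preMegE. Mmrn1 thus had its highest group mean in stem cells and its lowest in preMegE. Without the 4 libraries the same 3 members passed, where 49.8% of genes were called. Tgfb1 (log2 0.94, SE 0.39, adjusted p = 0.0592) joined them as higher without LTHSC KI replicate 3, preMegE KI replicate 2 or 3, or preMegE VF replicate 3 (adjusted p = 0.0203 to 0.0406), and by DESeq2 (adjusted p = 0.0354), which called 44.3% of genes.

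Between MkP and preMegE, over KI and VF, 6 members rose and 0 fell, where 7.54% of all genes were called, 3.27% as higher and 4.26% as lower. These were Pf4 (log2 2.29, SE 0.60, adjusted p = 0.0209), Ppbp, Vwf (log2 2.09, SE 0.37, adjusted p = 0.00102), Thbs1 (log2 2.53, SE 0.75, adjusted p = 0.0406), Clu (log2 1.58, SE 0.35, adjusted p = 0.00635) and Serpine2 (log2 1.28, SE 0.35, adjusted p = 0.0265). The estimates of the other members were also positive, from log2 0.84 for Selp to 1.74 for Mmrn1 (adjusted p = 0.0554). Ppbp and Vwf were higher in MkP without overlap, as were 1.38% of genes (3.4% in either direction). With the 4 libraries left out, all 10 members passed as higher, where 17% of genes were called and 8.36% as higher. Mmrn1 then rose by log2 2.22 (SE 0.26), F5 by 1.80 (SE 0.39), Tgfb1 by 1.67 (SE 0.36) and Selp by 0.89 (SE 0.28). The count depended on single libraries, from 3 members without MkP VF replicate 1 or preMegE VF replicate 3 to 8 without MkP KI replicate 5 or preMegE KI replicate 1. Over all genes the number called moved as well, to 695, 726, 1039 and 1840 in these 4 refits, against 1128 with all libraries. DESeq2 called 9 members, adding Selp, F5 and Mmrn1, with 11.8% of genes. The calls of Ppbp, Vwf and Clu held whichever of the 12 libraries was left out. That of Pf4 was lost without MkP KI replicate 6, MkP VF replicate 1, preMegE KI replicate 3, or preMegE VF replicate 2 or 3 (adjusted p = 0.0504 to 0.0758). Serpine2 lost its call without MkP KI replicate 4, MkP VF replicate 1 or 3, or preMegE VF replicate 2 or 3 (adjusted p = 0.0521 to 0.0719). Thbs1 lost it in 7 of the 12 refits, without MkP KI replicate 4, any MkP VF library, preMegE KI replicate 3, or preMegE VF replicate 1 or 3 (adjusted p = 0.0567 to 0.111).

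**Figure D2:**
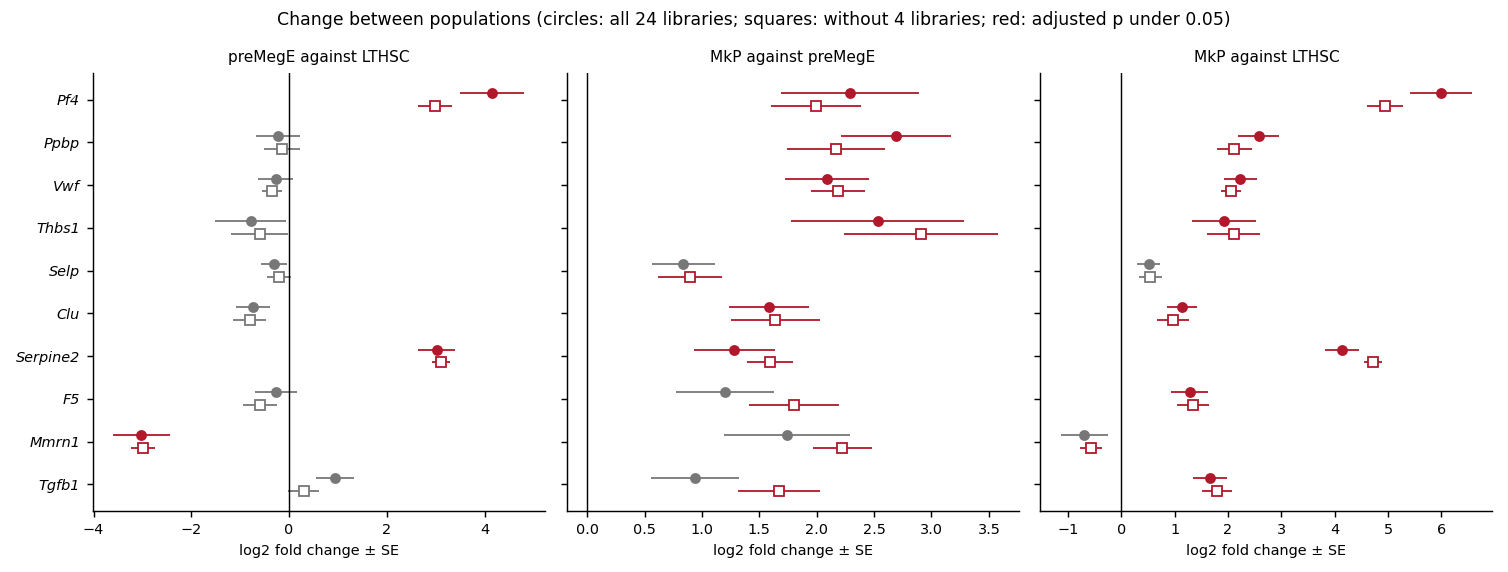
Log2 fold change with its SE (horizontal axis) of each member for the 3 population comparisons, from all 24 libraries (circles) and without the 4 libraries of low TMM factor (squares); red marks an adjusted p under 0.05. Mmrn1 is at -3.02 between preMegE and LTHSC and at 1.74 between MkP and preMegE, whereas Pf4 is above 0 in all 3.

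Thbs1 had few counts in several libraries. They ranged from 0 to 277 in preMegE libraries, with 0 in preMegE KI replicate 1 and 2 in replicate 3, and from 20 to 816 in MkP. MkP KI measured 24.3, 3.35 and 3.48 CPM, so the 2 libraries rich in short genes were low for this long gene. Without preMegE KI replicate 2 the difference between preMegE and LTHSC was log2 -2.79 (adjusted p = 0.0124), against -0.79 (adjusted p = 0.406) with it.

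The adhesive proteins followed separate courses. Vwf measured 31.7, 36.7 and 32.2 CPM in LTHSC KI, 58.7, 69.2 and 41.2 in preMegE KI and 212, 168 and 199 in MkP KI. In the VF line it measured 256, 162 and 175 CPM in LTHSC, 88.6, 102 and 50.7 in preMegE and 592, 364 and 324 in MkP. The preMegE VF libraries thus had less Vwf than both the stem cells and the MkP of the same line, whereas in KI the 3 populations stood in order without overlap. Selp, whose protein is the membrane receptor of the granule, had medians of 94.8 CPM in LTHSC, 67.7 in preMegE and 148 in MkP, and the libraries of all 3 overlapped.

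Clu, the chaperone, had a median of 17.95 CPM in LTHSC, 26.1 in preMegE and 67.8 in MkP. Its LTHSC libraries spanned 8.70 to 160 CPM, a range that covers all preMegE libraries. F5, the cofactor of thrombin generation, lay between 3.15 and 10.3 CPM in LTHSC and between 1.74 and 11.0 in preMegE. In MkP F5 measured 22.1, 24.7 and 26.4 CPM in E12 and 21.1, 16.1 and 22.5 in VF, all above every LTHSC and preMegE library, but 12.0, 2.01 and 8.66 in KI. Tgfb1 measured 2.39 to 7.83 CPM in LTHSC and 3.67 to 21.3 in preMegE. Tgfb1 had its highest group mean in MkP KI, where it measured 27.5, 22.5 and 18.5 CPM, although preMegE KI replicate 1, at 21.3, exceeded the lowest of these. The E12 libraries of MkP, at 6.38, 10.5 and 5.54, overlapped with both other populations.

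In LTHSC, the comparison of VF with KI asked whether stem cells of the V617F line carry more or less cargo RNA. Only Pf4 passed among the 10 members, where 0.0919% of the 14152 genes tested were called, 0.0212% as higher and 0.0707% as lower. It measured 151, 104 and 90.1 CPM in VF against 27.6, 14.4 and 14.1 in KI, 6.16-fold higher in the mean with no overlap (log2 2.59, SE 0.38, adjusted p = 0.0483). The call did not hold when any 1 of the 6 libraries was left out (adjusted p = 0.0957 to 0.267, log2 2.36 to 2.96). Clu was the member of the largest estimate. It measured 160, 115 and 85.9 CPM in VF against 12.6, 17.95 and 14.0 in KI (8.11-fold, log2 2.98, SE 0.56, adjusted p = 0.120). Vwf, the tether of platelets to collagen, measured 256, 162 and 175 CPM in VF against 31.7, 36.7 and 32.2 in KI (5.89-fold, log2 2.52, SE 0.65, adjusted p = 0.277). These VF values overlap with the MkP KI libraries, which had 168 to 212 CPM of Vwf. Serpine2 (4.78-fold) and Selp (2.98-fold) were also higher in VF with no overlap and did not pass (adjusted p = 0.307 and 0.240). Mmrn1 went the other way, with each VF library below each KI library (1.72-fold lower, log2 -0.82, SE 0.88, adjusted p = 0.928). These 6 members did not overlap between VF and KI, as did 30.9% of genes, 17.4% as higher. Ppbp, Thbs1, F5 and Tgfb1 overlapped. The 13 markers of mature megakaryocytes and platelets summed to 1273 to 1502 CPM in LTHSC KI and 1400 to 1632 in LTHSC VF, ranges that overlap. Neutrophil and monocyte markers were also measured in both, at 993 to 2156 CPM (KI) and 713 to 821 CPM (VF) in sum, and their part in the result was not tested.

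The fit of LTHSC shares its spread with the E12 group, whose replicate 4 stands apart. Without the 4 libraries, 4 members passed as higher in VF, where 2.03% of genes were called and 1.03% as higher. These were Vwf (log2 2.52, SE 0.19, adjusted p = 0.00107), Pf4 (log2 2.59, adjusted p = 0.0142), Clu (log2 2.98, adjusted p = 0.0168) and Serpine2 (log2 2.22, adjusted p = 0.0205). Selp then had an adjusted p of 0.0510 and Mmrn1 of 0.0810. The estimates were nearly those of the full fit, and their SE were smaller. DESeq2 called Pf4, Vwf, Selp, Clu and Serpine2, with 1.9% of genes called.

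LTHSC of the E12 line were compared with the same KI libraries. Here 0 members passed, where edgeR called 0.0424% of genes, 0.0353% as higher and 0.00707% as lower. DESeq2 called 3, Pf4, Selp and Serpine2, with 3.08% of its genes. Pf4 measured 78.3, 41.7 and 39.4 CPM in E12, between the KI and the VF libraries and without overlap with either (log2 1.497 against KI, SE 0.37, adjusted p = 0.209). Serpine2 measured 14.1, 43.6 and 7.53 CPM (log2 2.82, SE 0.61, adjusted p = 0.188), and log2 1.75 (SE 0.38, adjusted p = 0.121) without replicate 4, which had the highest of these values. Without replicate 2 instead, Serpine2 passed (log2 3.06, adjusted p = 0.0466). Selp measured 117, 94.8 and 164 CPM against 36.7, 36.1 and 72.4 in KI (log2 1.34, SE 0.37, adjusted p = 0.236). Mmrn1 was below KI in each E12 library (386, 5.95 and 213 CPM), but by a near tie. The highest E12 library had 386.5 CPM and the lowest KI library 387.5. In all, 4 members did not overlap, as did 16.1% of genes, 8.49% as higher. Replicate 4 stood apart in its neutrophil and monocyte markers and in its low share of counts on long genes, whose part was not tested. It was the lowest LTHSC library for Mmrn1, Vwf (5.498 CPM), Clu (8.70 CPM) and 3 other members, and the highest for Serpine2.

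Against E12, the VF stem cells had 0 members passing, where edgeR called 0.0353% of genes, 0.00707% as higher and 0.0283% as lower. DESeq2 called 2, Vwf and Clu, with 1.24% of genes. Vwf measured 66.0, 5.498 and 58.0 CPM in E12, all below the VF libraries (log2 2.20, SE 0.64, adjusted p = 0.441). Without LTHSC E12 replicate 4 the difference was log2 1.68 (SE 0.21, adjusted p = 0.0313), where 0.0899% of genes were called. Clu was higher in VF by log2 2.38 (SE 0.55, adjusted p = 0.316, and 0.0225 without LTHSC E12 replicate 2) and Pf4 by 1.10 (SE 0.36, adjusted p = 0.448), both without overlap, as were 21.2% of genes, 11.5% as higher.

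**Figure D3:**
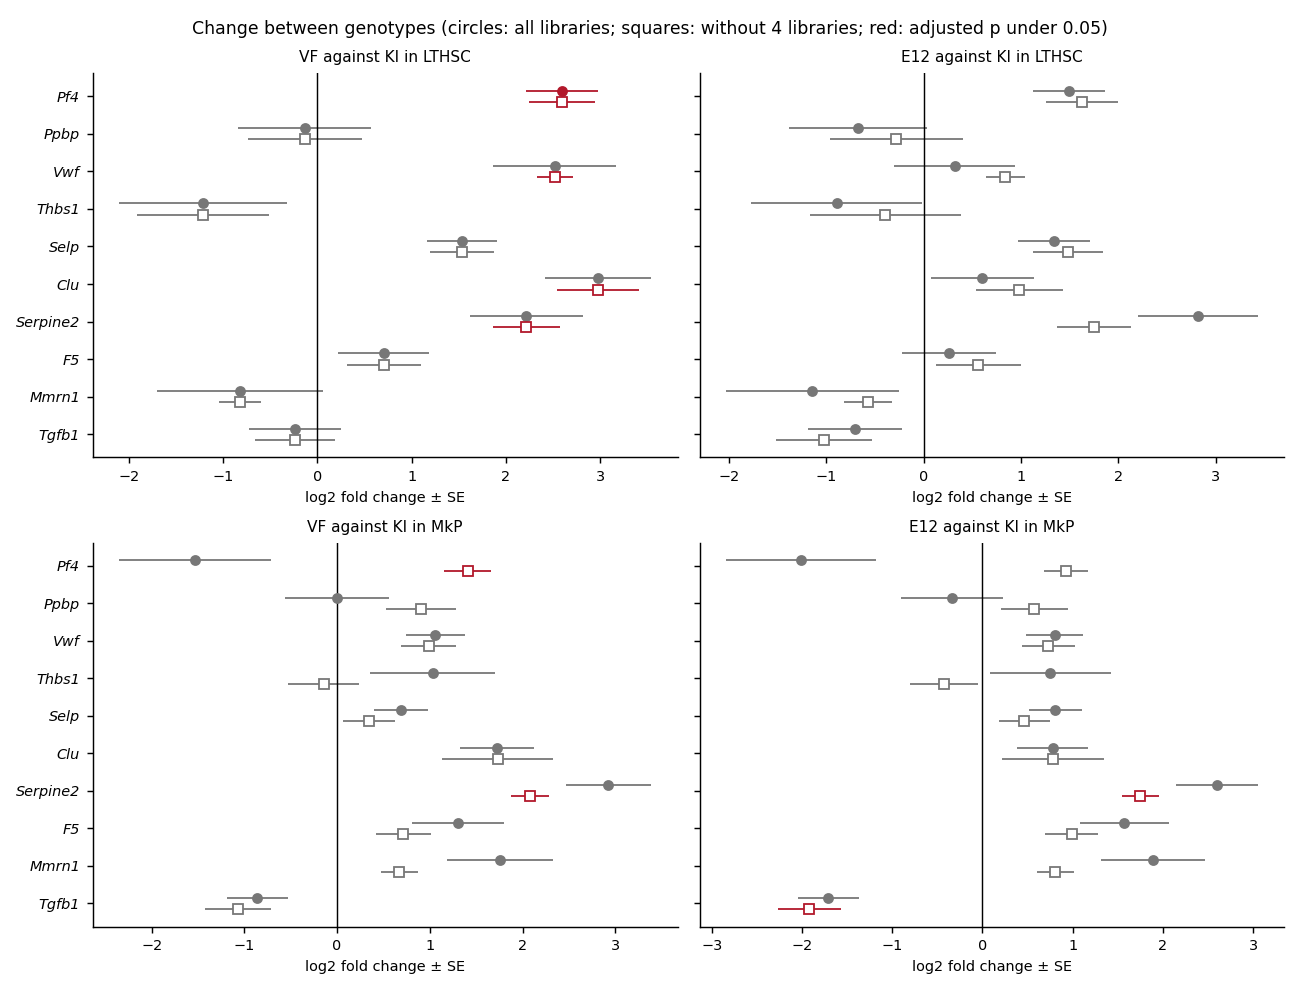
Log2 fold change with its SE (horizontal axis) of each member for VF and E12 against KI in LTHSC and MkP, from all libraries (circles) and without the 4 libraries of low TMM factor (squares); red marks an adjusted p under 0.05. Pf4 in MkP lies at -1.53 for VF with all libraries and at 1.41 without the 4, and Serpine2 is positive in each panel.

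In preMegE, 0 members passed between VF and KI, where 0.0151% of genes were called by edgeR. None had an unadjusted p under 0.05, and DESeq2 called 0 members with 0.496% of genes. Thbs1 did not overlap (3.95, 12.1 and 3.70 CPM in VF against 0, 2.84 and 0.0863 in KI, log2 2.68, SE 1.24, adjusted p = 0.642), as did 12.1% of genes, 6.4% as higher. For Vwf the difference was log2 0.52 with an interval of 2 SE from -0.26 to 1.30, and for Clu 0.03, from -0.84 to 0.89. For Pf4 the difference was log2 -0.69 with an interval from -2.80 to 1.42, and log2 1.57 (adjusted p = 0.586) without preMegE KI replicate 1, so neither a rise nor a fall can be read. Neutrophil and monocyte markers summed to 8903 to 19130 CPM in preMegE VF and 2546 to 3978 in preMegE KI, and their part in these values was not tested.

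In MkP, both lines were compared with the same KI libraries. 0 members passed between VF and KI or between E12 and KI, where edgeR called 0% of genes in both. DESeq2 called 5 and 7 members with 18.2% and 20.1% of genes. Serpine2 was furthest apart, with 422, 323 and 388 CPM in VF and 299.8, 342 and 273 in E12 against 88.1, 23.3 and 31.3 in KI (log2 2.93, SE 0.46, adjusted p = 0.0755 for VF, and 2.60, SE 0.45, adjusted p = 0.0616 for E12). Even the KI library with an ordinary TMM factor, at 88.1 CPM, lay below all 6 VF and E12 libraries. Mmrn1 measured 157, 23.5 and 37.2 CPM in KI, below all VF (310, 220 and 231) and E12 libraries (304, 286 and 257). Clu measured 239, 105 and 83.8 CPM in VF and 65.4, 91.3 and 67.8 in E12 against 42.2, 29.4 and 49.9 in KI (log2 1.72, SE 0.40, adjusted p = 0.0755 for VF, and log2 0.78, adjusted p = 0.211 for E12). Vwf measured 320, 412 and 352 CPM in MkP E12, so that each VF and E12 library lay above each KI library (2.21-fold and 1.87-fold in the mean, adjusted p = 0.0827 and 0.131). The F5 values above give means 2.64-fold and 3.23-fold those of KI (adjusted p = 0.134 and 0.0810). Mmrn1, Vwf and F5 are long genes, a class with 11.7% to 14.3% of the counts in the libraries rich in short genes. In the other MkP libraries that class held 24.7% to 27.1%. MkP KI replicate 4, at 157 CPM of Mmrn1, 212 of Vwf and 12.0 of F5, also lay below all 6 VF and E12 libraries. For Thbs1, also a long gene, it did not (24.3 CPM). The part of gene length in these differences was not tested. Tgfb1 was lower in both lines with no overlap: 27.5, 22.5 and 18.5 CPM in KI against 13.5, 12.4 and 14.0 in VF (log2 -0.86, SE 0.33, adjusted p = 0.140) and 6.38, 10.5 and 5.54 in E12 (log2 -1.71, SE 0.34, adjusted p = 0.0616). Without overlap, 5 members were higher and 1 lower in VF, beside 20.3% of genes (13.3% higher), and 6 were higher and 1 lower in E12, beside 23.6% of genes (16.2% higher). The 7 mast and basophil markers summed to 301, 1000 and 761 CPM in MkP KI and to 66.5 to 189 in the other MkP libraries, and their part in these differences was not tested. The 13 markers of mature megakaryocytes and platelets summed to 2169 to 3763 CPM in MkP KI and to 4370 to 5697 in the other MkP libraries.

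The MkP differences moved with the 2 KI libraries rich in short genes. Once the 4 were left out, Serpine2 (log2 2.08, SE 0.21, adjusted p = 0.00183) and Pf4 (log2 1.41, SE 0.25, adjusted p = 0.0443) passed as higher in VF, where 0.414% of genes were called. The Pf4 difference had the opposite sign with all libraries (log2 -1.53, SE 0.82, adjusted p = 0.248). Serpine2 (log2 1.75, SE 0.20, adjusted p = 0.00380) passed as higher and Tgfb1 (log2 -1.92, SE 0.35, adjusted p = 0.0308) as lower in E12, where 0.684% of genes were called. With the 4 left out, Mmrn1 was higher by log2 0.67 in VF and 0.81 in E12, against 1.75 and 1.89 with all libraries. F5 was higher by 0.71 and 0.99, against 1.30 and 1.57. Vwf (0.99 and 0.73) and Clu (1.73 and 0.79) moved little, from 1.06 and 0.80 and from 1.72 and 0.78. Leaving out MkP KI replicate 4 instead, so that KI held the 2 libraries that stand apart, 8 members passed in each comparison, but so did 48.9% and 49.8% of all genes. Leaving out any other 1 of the 6 libraries compared called 0 members in each.

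The ratio of Pf4 to another member shows these libraries apart without any scaling between libraries. Pf4 CPM over Vwf CPM was 31.7 in MkP KI replicate 5, 67.9 in MkP KI replicate 6 and 45.9 in preMegE KI replicate 1. It was 4.34 to 7.47 in the other 7 MkP libraries and 3.43 to 14.5 in the other 5 preMegE libraries. In LTHSC it was 7.58 in E12 replicate 4 and 0.393 to 1.19 in the other libraries. Pf4 over Serpine2 was 229, 430 and 117 in the same 3 libraries, against 5.70 to 10.4 and 3.34 to 16.9 in the other MkP and preMegE libraries. The highest ratio to Vwf outside these 3, in preMegE VF replicate 1, came with the next highest share of counts on short genes, 16.8%. Share of short genes and ratio come from the same library, and the ratio's link to gene length was not tested.

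**Figure D4:**
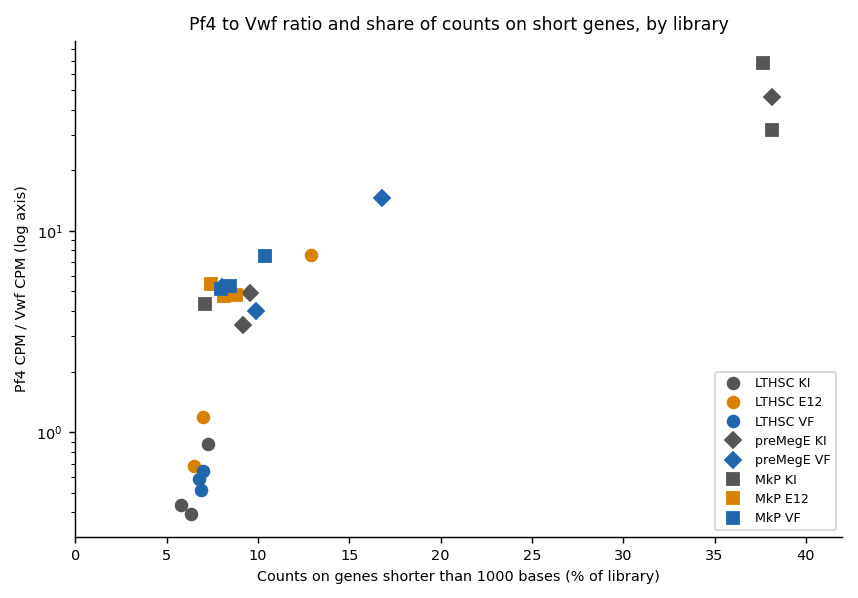
Each point is 1 of 24 libraries; the horizontal axis is the percent of its counts on genes shorter than 1000 bases and the vertical axis, on a log scale, is Pf4 CPM divided by Vwf CPM. The 3 libraries at 37.7% to 38.1% have ratios of 31.7 to 67.9, and the other MkP libraries lie at 4.34 to 7.47.

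Between VF and E12 in MkP, 0 members passed, where edgeR called 0% of genes and DESeq2 0 members with 0.0467% of genes. The largest estimates were those of Clu (log2 0.94, SE 0.39) and Tgfb1 (log2 0.85, SE 0.33, both adjusted p = 1.00). Tgfb1 alone did not overlap, as did 14.8% of genes, 6.59% as higher. The intervals of 2 SE were -0.37 to 0.88 for Vwf and -0.53 to 1.18 for Serpine2.

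Whether the genotype differences changed between populations was tested directly. 0 members passed in the 4 differences of differences, where edgeR called 0% of genes for VF against KI in preMegE minus LTHSC, 0.0134% for VF against KI and 0.0334% for E12 against KI in MkP minus LTHSC, and 0% for VF against E12 in MkP minus LTHSC. DESeq2 called 1, 1, 2 and 0 members, namely Clu, then Pf4, then Pf4 and Mmrn1. It also called more of all genes than edgeR in each of the 4. Those counts stand in the section on processing, and the members are to be read beside them. For Clu the VF difference was smaller in preMegE than in LTHSC by log2 -2.99 (SE 0.70, adjusted p = 0.705). Without the 4 libraries Vwf (log2 -1.97, SE 0.40, adjusted p = 0.0460) and Serpine2 (log2 -1.82, SE 0.35, adjusted p = 0.0418) passed in that difference, where 0.207% of genes were called. Mmrn1 is the member whose VF libraries lay below all KI libraries in LTHSC and above all of them in MkP. The difference of these differences was log2 2.59 (SE 1.08, adjusted p = 0.287) and 1.46 (SE 0.52, adjusted p = 0.606) without the 4 libraries, so a change of direction between populations was not shown. Without MkP KI replicate 4 that difference passed for Mmrn1 (log2 3.84, adjusted p = 0.0193) and for Pf4 (log2 -4.55, adjusted p = 0.0149), where 2614 genes passed in all. For E12 against KI, Mmrn1 did not pass with all libraries (log2 3.06, SE 1.09, adjusted p = 0.0901). It passed without MkP KI replicate 4 (4.32, adjusted p = 0.00518) or LTHSC E12 replicate 2 (3.94, adjusted p = 0.0414). Pf4 (log2 -3.38, adjusted p = 0.0845) passed without MkP KI replicate 4 (-3.89, adjusted p = 0.00901). Over the refits that left out 1 library, 0 to 4530 of all genes passed for this difference.

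Other genes of the pathway changed in both directions. Their counts, here and in the next paragraph, are to be read beside the shares of all genes called. Those shares are given above with each population comparison. Of 29 tested genes for other alpha-granule cargo, 8 rose and 11 fell in MkP against LTHSC (median log2 -0.61). F13a1 (log2 3.50), the factor XIII subunit that cross-links fibrin, Ltbp1 (3.03), which binds latent TGF-beta, and Timp3 (1.88), a metalloproteinase inhibitor, rose. The growth factor genes Igf1 (log2 -4.85) and Vegfc (-3.45) and the vitamin K-dependent ligand Gas6 (-4.66) fell. In preMegE against LTHSC 4 of 29 rose and 10 fell, and in MkP against preMegE 3 rose and 1 fell, which became 8 and 2 of 30 without the 4 libraries. Of 24 genes for granule sorting and release, 4 rose and 3 fell in MkP against LTHSC (median log2 -0.03), a smaller part than of all genes. The small GTPase gene Rab27b (log2 2.10, adjusted p = 1.19e-06) and the syntaxin gene Stx11 (2.35) rose. Nbeal2, the gene lost in grey platelet syndrome, a disease of missing alpha granules, fell by 0.60 on the log2 scale (adjusted p = 0.00626). In preMegE against LTHSC 2 of these genes rose and 8 fell, and 3 rose and 0 fell from preMegE to MkP, 8 and 0 without the 4 libraries.

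Of 25 receptors and partners of the cargo, 10 rose and 8 fell in MkP against LTHSC (median log2 0.30). Gp1bb (log2 4.46) and Gp5 (3.07), of the von Willebrand factor receptor, rose, as did Itga2b (3.00) of the fibrinogen receptor, the thrombin receptor gene F2rl2 (3.98) and Lrrc32 (5.02), whose protein anchors latent TGF-beta at the cell surface. The syndecan gene Sdc4 (log2 -6.56) and the endocytic receptor gene Lrp1 (-2.90) fell. In preMegE against LTHSC 6 rose and 2 fell, but 6 and 7 without the 4 libraries. From preMegE to MkP 6 rose and 3 fell, and 10 and 3 without them. Of 18 transcription factors of megakaryocytes, 11 rose and 0 fell in MkP against LTHSC (median log2 0.49), among them Gata1 (2.17), its partner Zfpm1 (1.86), Mef2c (1.44) and Gfi1b (1.03). In preMegE against LTHSC 3 rose and 5 fell, and 4 and 9 without the 4 libraries. From preMegE to MkP 8 rose and 0 fell, and 9 and 0 without them. In none of the 7 genotype comparisons did a gene of these 4 lists pass by edgeR. Hardly any genes passed in these comparisons, at the shares given above with each, so this says nothing particular about the lists. Among 8 tested chromosomal neighbours of the members, 1 rose and 2 fell in MkP against LTHSC, a part close to that of all genes. Cxcl5, next to Ppbp, was the one that rose (adjusted p = 0.0061), with 0 CPM in all LTHSC KI libraries, at most 0.335 in the other LTHSC libraries and at most 5.85 in MkP.

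Across the 24 libraries, the log2 CPM of the 45 pairs of members had correlations from -0.239 to 0.879 with a median of 0.505. The highest was between Clu and Vwf. Among 13877 genes, those most like each member over the 24 libraries were Lim2 for Pf4 (Pearson r = 0.965), Plcb1 for Ppbp (0.905), Reep2 for Vwf (0.943), with Itgb3 the next (0.939), and Ptprs for Thbs1 (0.908). They were S1pr2 for Selp (0.830), Rpn1 for Serpine2 (0.952), Elf1 for F5 (0.834), Angpt1 for Mmrn1 (0.946) and Zfpm1 for Tgfb1 (0.892). These values describe libraries that share populations, depth and, in 3 cases, an excess of short genes, and carry no test. When the 8 groups were ordered by mean level of each member, 58 of the 70 pairs of neighbouring groups overlapped in their libraries and 12 did not. Pf4 was the member with a full order in stem cells, VF above E12 above KI with no overlap, while Ppbp, next to it on chromosome 5, had all 3 LTHSC groups overlapping.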

How the data were processed

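Gene counts were deposited by the authors as 1 table of whole-number counts for 24 libraries. Per the submitters' processing notes, STAR 2.7.0c, featureCounts of Subread 1.6.4 and the mm10 build were used; the annotation, strand setting and handling of multi-mapping reads are not given in the sources used here, so reads shared by overlapping or near-identical genes may be split or lost. Of 24454 features, 16 have no symbol and were left out (at most 0.0132% of a library's counts). Columns named MEP were read as the preMegE samples. Gene lengths came with the table.

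Differences were fitted with edgeR 4.0.16 (R 4.3.3, limma 3.58.1): genes kept by filterByExpr, TMM scaling, the robust quasi-likelihood F test over all genes that passed, and Benjamini-Hochberg adjustment with a threshold of 0.05. Genotypes were compared within a population over all its libraries, populations and differences of differences over all 24. SE is the log2 fold change divided by the square root of F. Every adjusted p is from these fits unless DESeq2 1.42.0 is named. CPM use TMM over 24 libraries, and correlations use log2 CPM with a prior count of 2. Counts were not corrected for duplicate molecules, so reads are not independent molecules. No 2 libraries agreed within sampling noise (276 pairs, smallest chi-square per degree of freedom 20.7). The code was checked on simulated counts.

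Members and gene lists were chosen with earlier results of these data known. Named list genes are up to 5 per list, comparison and direction with the largest change among those passing, of which the text gives some. Alternatives were DESeq2, RLE scaling, no filter, only the groups compared, a replicate block, each library left out, and the 4 libraries of low TMM factor left out; library totals without TMM were added after seeing the data. Figures were drawn with matplotlib 3.10.9.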

Additional observations from a re-analysis of the deposited data

Results flagged for a closer look

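Fcer1a, a subunit of the IgE receptor of mast cells and basophils and 1 of the 7 markers of those cells, was the one listed gene whose E12 difference changed between populations by a test. The E12 against KI difference in MkP minus that in LTHSC was log2 -7.09 (edgeR, adjusted p = 0.0486). Fcer1a averaged 240 CPM in MkP KI, with libraries from 41.9 to 352, against 36.6 in MkP E12, and 1.13 in LTHSC KI against 23.9 in LTHSC E12. Without the 4 libraries of low TMM factor the difference was -3.67 (SE 1.21, adjusted p = 0.709).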

How the results depend on the processing

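Counts of members called are given as those of 10 past an adjusted p of 0.05. DESeq2 called 5 for VF against KI, 3 for E12 against KI and 2 for VF against E12 in LTHSC, 5 and 7 for VF and E12 against KI in MkP, and 1, 1 and 2 for the differences of VF against KI between preMegE and LTHSC, of VF against KI between MkP and LTHSC, and of E12 against KI between MkP and LTHSC. Over all genes DESeq2 called 287, 465, 182, 2570, 2844, 11, 333 and 2069 in these, against 13, 6, 5, 0, 0, 0, 2 and 5 by edgeR, and 69 against 2 for VF and KI in preMegE, 1790 against 1128 for MkP and preMegE (9 members against 6), 6744 against 6092 for preMegE and LTHSC (4 members against 3), 5720 against 5198 for MkP and LTHSC (8 members in both), 8 against 0 for VF and E12 in MkP and 43 against 0 for their difference from LTHSC. Without a filter on low counts 2 members and 1041 genes passed for E12 against KI in MkP. Fitting the 2 compared groups alone called 6 members (933 genes) for VF against KI in LTHSC. Without the 4 libraries the counts were 4 for VF against KI and 1 for VF against E12 in LTHSC, 2 each for VF and E12 against KI in MkP, 10 for MkP against preMegE and 2 for the VF difference between preMegE and LTHSC; 293, 13, 60, 99, 2708 and 33 genes passed in all. Pf4 in VF against KI in MkP then changed sign to log2 1.41. The cause of these changes was not tested.

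Library totals without TMM, chosen after seeing the data, called 0 members for VF against KI in LTHSC and shifted the median log2 fold change of all genes by up to 0.62 over the comparisons; 4, 6 and 4 members then passed for preMegE against LTHSC, MkP against LTHSC and MkP against preMegE. Of all genes called, 1702 of 5438 were higher in preMegE and 1208 of 4396 in MkP against LTHSC under library totals, against 3183 of 6092 and 2551 of 5198.

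Single libraries were left out only from the groups compared. In LTHSC, members called then ranged from 0 to 1 for E12 against KI (2 to 396 of all genes), 0 to 1 for VF against E12 (1 to 305) and 0 to 0 for VF against KI (1 to 7). The last comparison does not include LTHSC E12 replicate 4, the library of this fit whose removal gave the 4 members above. In MkP the range was 0 to 8 for VF (0 to 6732 of all genes) and for E12 against KI (0 to 6856), the 8 without MkP KI replicate 4. It was 8 to 9 for MkP (4461 to 6406) and 3 to 5 for preMegE against LTHSC (5175 to 6049), and 3 to 8 for MkP against preMegE (695 to 1912). The differences between MkP and LTHSC ranged from 0 to 2 for VF (2 to 2614) and E12 against KI (0 to 4530). In these refits 0 members were called for VF against KI in preMegE (0 to 32 of all genes), VF against E12 in MkP (0 to 0), its difference from LTHSC (0 to 26), and the VF difference between preMegE and LTHSC (0 to 0).

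With the replicate number as a block, 6 members passed for VF against KI in LTHSC (704 genes), Pf4, Vwf, Selp, Clu and Serpine2 as higher and Mmrn1 as lower. Whether the numbers pair the samples was not settled. In LTHSC, same-numbered KI and VF libraries deviated from their group means with correlations of -0.007, 0.011 and 0.002. In preMegE these correlations were 0.256, 0.0538 and 0.216. Between populations of the same line, same-numbered libraries had correlations from -0.0580 to 0.110. Libraries of different numbers were not compared. The block called 0 members in preMegE (10 of all genes) and 0 for E12 against KI in MkP (9). It called 3 for preMegE against LTHSC (41.4% of all genes), 8 for MkP against LTHSC (10.5%, against 34.7% without the block) and 4 for MkP against preMegE (3.37%, against 7.54%).

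Of 2140 refits of single members, 2015 kept direction and side of the threshold or stayed uncalled (76 of these with another sign), 93 gained the threshold, 31 lost it and 1 changed sign as a called value. Low counts limit Thbs1, with 0 to 277 counts in preMegE libraries.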
